A study of Mus musculus with 15 samples.

Results

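Chemokines and their receptors form a family of 61 genes in these mouse mammary libraries, chosen by gene symbol alone out of 51826 genes in the deposited tables. They comprise 39 ligands (24 of the CC, 13 of the CXC, 1 of the CX3C and 1 of the XC type), 18 signaling receptors and 4 atypical receptors. No expression value entered the choice.

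RNA was sequenced from whole mammary tumors and whole mammary glands of 13 female mice. Trim24COE tumors arose in virgin mice that carried MMTV-Cre together with a Cre-dependent, FLAG-tagged mouse Trim24 transgene, so that the transgene was switched on mainly in mammary epithelium. By label, 3 of these tumors were metaplastic carcinosarcomas (mice 64, 567 and 897) and 3 were carcinomas (mice 89, 273_5 and 3956), although the pathologists of the study did not classify tumors 89, 567 and 3956 alike. Control glands came from 4 age-matched MMTV-Cre mice without the transgene (133, 392, 417_3 and 517_3), which therefore shared Cre with the tumor mice. The non-TRIM24 tumors (219, FVB001 and FVB002) arose spontaneously in mice whose genotype the labels give as unknown. Strain was FVB in the sample labels and FVB/129 in the series text, and the ages of the sequenced mice were not used here. All non-TRIM24 tumors were sequenced in batch 2, together with repeat libraries of gland 133 and carcinoma 3956, and every other library was in batch 1.

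Levels are given in TPM, estimated transcripts scaled for gene length to the same total in each library, a unit that keeps no sequencing depth. Trim24 itself was measured at 10.6 to 24.1 TPM in the 6 libraries labelled Trim24COE, at 14.5 to 22.4 TPM in the 4 control glands and at 5.34 to 10.04 TPM in the non-TRIM24 tumors. Its level therefore did not separate Trim24COE tumors from glands (log2 fold change -0.24, standard error 0.26, limma adjusted p = 0.557), and directions below rest on the labels. The study itself reports higher Trim24 RNA by qRT-PCR in the tumors than in Cre-only glands. It describes this rise as predicted by its RNA-seq, whereas the TPM values above show no such rise. It also reports more TRIM24 and FLAG protein by immunohistochemistry in Trim24COE tumors. The summed level of 9 mammary epithelial markers was 372 to 1424 TPM in carcinosarcomas, 2755 to 6690 TPM in carcinomas, 940 to 5920 TPM in glands and 566 to 5888 TPM in non-TRIM24 tumors. The control glands fell into unlike pairs. Glands 133 and 392 held 24540 and 37155 TPM of 8 adipocyte markers against 1782 and 1969 TPM in glands 417_3 and 517_3. Glands 417_3 and 517_3 were also nearly alike: 4.08% of the genes at 1 TPM or more differed over 2-fold between them, against 4.83% and 12.3% between the first and repeat libraries of mice 3956 and 133. The labels give them as separate mice, so the counts of called family members in Trim24COE tumors against glands are also given with either pair left out. Calls of cell type markers and of other genes of chemokine biology are not given in that way.

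Chemokines are small secreted proteins that direct the migration of leukocytes along gradients. Their receptors are G protein-coupled receptors found mostly on leukocytes, whereas atypical receptors bind chemokines without G protein signaling and scavenge or transport them. Ligand transcripts come from epithelium, stroma and leukocytes, so that a ligand and its receptor need not be read from one cell type. In bulk tissue, more cells of a type and more RNA per cell cannot be told apart.

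Most of the family was measurable, and ligands stood far above receptors. Of the 61 genes, 53 reached 1 TPM in at least 1 library and 23 did so in all 13 mice, of which 20 were ligands. Ccl26 and Ccl27b were listed at 0 in every mouse. Over 13 mice the highest mean levels among ligands were those of Cxcl14, a constitutive epithelial and stromal chemokine, at 232 TPM, and Ccl8, a monocyte and macrophage product, at 222 TPM. Ccl6 followed at 164 TPM, Cxcl16 at 89.8 TPM and Cxcl1 at 89.2 TPM. Cxcr4, the receptor of Cxcl12, led the receptors at 35.3 TPM, followed by the monocyte receptor Ccr2 at 20.9 TPM, Cx3cr1 at 16.8 TPM and Ccr1 at 16.6 TPM. Means hide a wide spread between mice: Ccl8 ran from 21.5 TPM in gland 417_3 to 847 TPM in carcinosarcoma 897. Cxcl14 measured 227, 503 and 46.1 TPM in carcinosarcomas, 206, 31.9 and 557 TPM in carcinomas, 68.1, 80.8, 566 and 571 TPM in glands 133, 392, 417_3 and 517_3 and 115, 12.2 and 34.9 TPM in non-TRIM24 tumors. Its 4 highest values came from 2 glands and from 1 tumor of each Trim24COE class. Cxcl16, an attractant of T cells that is also made membrane-bound, ran from 80.97 TPM through a median of 109.9 TPM to 144 TPM in Trim24COE tumors and was 21.2, 36.2, 107 and 104 TPM in glands. Its receptor Cxcr6 was at most 4.33 TPM in any mouse. Ccl21a, Ccl21b and Ccl21d are near-identical copies, and the division of reads among them is uncertain.

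**Figure D1:**
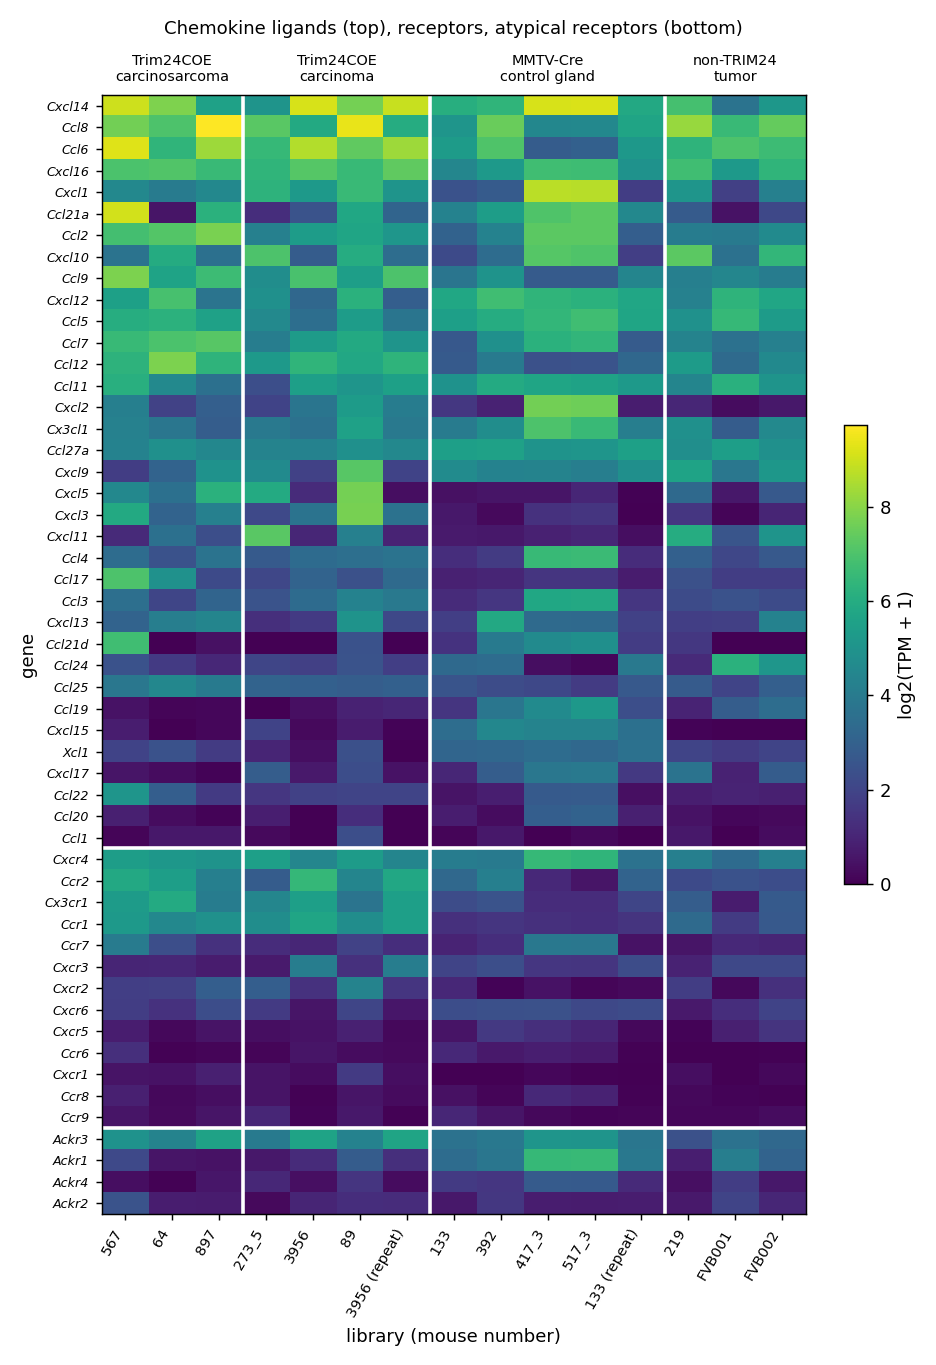
Level of 52 of the genes that reached 1 TPM in a library, as log2(TPM + 1) in color, with 1 row per gene and 1 column per library; white lines separate ligands, receptors and atypical receptors, and the groups. Glands 417_3 and 517_3 share high Cxcl1, Cxcl2, Ccl3 and Ccl4, and Ccr1 is low in all 4 glands.

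Summed over the family, receptors separated Trim24COE tumors from the other groups and ligands did not. Receptor sums were 187, 231 and 136 TPM in carcinosarcomas 64, 567 and 897 and 143, 129 and 257 TPM in carcinomas 89, 273_5 and 3956. Control glands had receptor sums of 46.5, 61.5, 123 and 106 TPM, all below the lowest Trim24COE tumor. Gland 417_3 (123 TPM) and carcinoma 273_5 (129 TPM) lay closer together than the first and repeat libraries of gland 133 or carcinoma 3956, given below. Non-TRIM24 tumors had 45.7, 26.8 and 48.1 TPM, overlapping the low end of the glands. Ligand sums overlapped: 1026 to 3149 TPM in the 6 Trim24COE tumors, 480 to 2504 TPM in glands and 751 to 1175 TPM in non-TRIM24 tumors. The ratio of ligand to receptor sums was 6.37 to 17.4 in Trim24COE tumors, 10.3 to 23.5 in glands and 19.1 to 28.02 in non-TRIM24 tumors. Only the ranges of Trim24COE and non-TRIM24 tumors did not overlap, and these lay in different sequencing batches. Between batches the ratio of the repeated libraries rose, from 10.3 to 15.3 for gland 133 and from 6.37 to 7.17 for carcinoma 3956. Their receptor sums fell from batch 1 to batch 2, from 46.5 to 34.7 TPM for gland 133 and from 257 to 214 TPM for carcinoma 3956. These sums are descriptions with no test, and a few genes set them: the leading 3 ligands held 34.8% to 66.2% of the ligand sum in the 13 mice. Cxcr4 alone made up 90.9 of 123 TPM and 80.5 of 106 TPM of the receptor sums in glands 417_3 and 517_3.

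**Figure D2:**
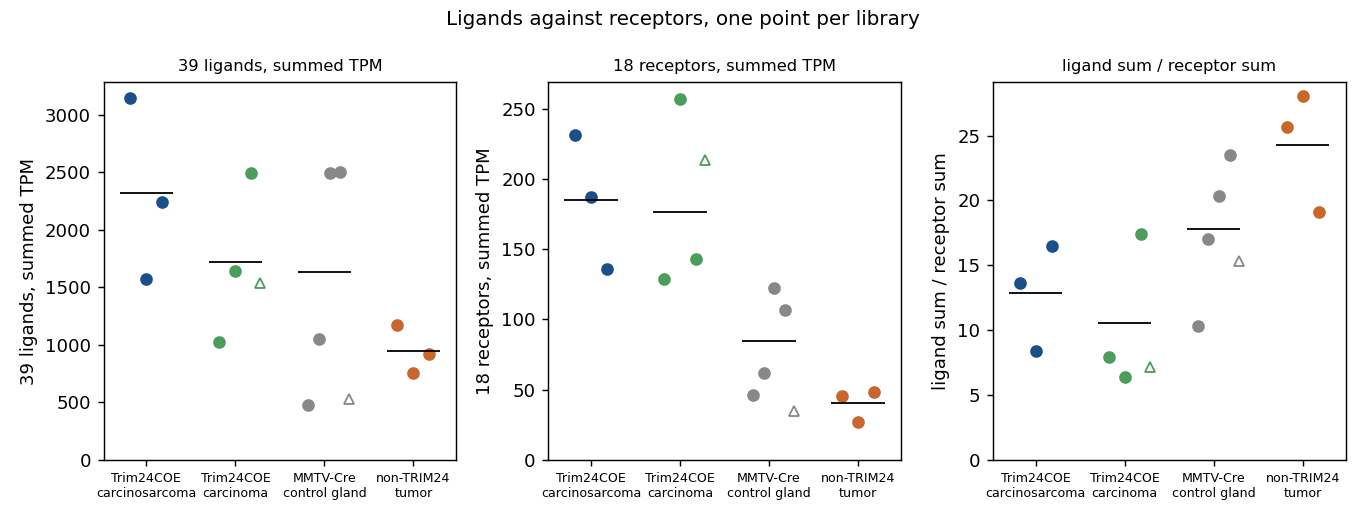
Summed TPM of 39 ligands, of 18 receptors and their ratio, 1 point per library; horizontal lines are group means of the first libraries and open triangles are the batch 2 repeats of mice 133 and 3956. Receptor sums of the 6 Trim24COE tumors (129 to 257 TPM) lie above those of the 4 glands (46.5 to 123 TPM), while ligand sums overlap.

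To ask which genes set tumors apart from normal glands, the 6 Trim24COE tumors were compared with the 4 control glands. The receptors Ccr1, Cx3cr1 and Cxcr2 and the ligands Ccl6, Ccl9, Ccl12, Ccl25, Cxcl3 and Cxcl5 were higher in tumors, and the ligands Ccl19, Ccl27a, Cxcl15 and Xcl1 and the atypical receptors Ackr1 and Ackr4 were lower. Of 61 genes, 46 were tested (at least 1 TPM in 4 or more libraries), and 16 passed an adjusted p of 0.05 in limma on log2(TPM + 1). Of these 10 were higher and 6 lower, while among all 15196 genes tested 17.1% passed, 7.96% higher and 9.13% lower. Among ligands 6 were higher and 4 lower of 33 tested; 4 receptors were called, all higher, of 9 tested; and 2 atypical receptors were called, both lower, of 4 tested. The median log2 fold change was -0.32 for tested ligands and 2.09 for tested receptors, beside -0.04 for all genes. The receptors tested are those that some group expresses, and over all 18 receptors without the filter the median was -0.12. No overlap between tumors and glands was seen for 10 higher and 6 lower genes of the family, against 7.39% and 7.2% of all genes tested. Ccl17 and Cxcl11 were among the 10 without passing the test (limma adjusted p = 0.0829 and 0.120).

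Ccr1, a receptor of inflammatory CC chemokines on monocytes and neutrophils, was the member with the smallest p. It stood at 22.2, 36.4 and 29.0 TPM in carcinosarcomas 64, 567 and 897 and at 26.3, 26.3 and 51.7 TPM in carcinomas 89, 273_5 and 3956. The glands had 1.53, 1.82, 1.58 and 1.42 TPM, a narrow range that both pairs of glands shared. The log2 fold change was 3.62 (standard error 0.26, limma adjusted p = 0.000100), and Ccr1 passed the threshold in all 21 alternative fits. Among its ligands, Ccl9 measured 49.5, 224 and 99.8 TPM in carcinosarcomas and 43.3, 26.2 and 121 TPM in carcinomas. Glands had 12.8, 31.2, 5.88 and 5.91 TPM of Ccl9, so that carcinoma 273_5 fell below gland 392 while the other 5 tumors lay above all glands. Ccl9 was called higher (log2 fold change 2.63, standard error 0.61, limma adjusted p = 0.0157), a call lost without glands 417_3 and 517_3 (log2 fold change 1.82, limma adjusted p = 0.119) and with a covariate for adipocyte markers (limma adjusted p = 0.0505). Ccl6, the neighbor of Ccl9 on chromosome 11 and likewise a Ccr1 ligand, ranged from 80.9 TPM through a median of 238 TPM to 611 TPM in the tumors. Gland 392, at 131 TPM, overlapped them, whereas glands 133, 417_3 and 517_3 had 39.2, 6.11 and 6.98 TPM. Ccl6 passed (log2 fold change 3.18, standard error 0.85, limma adjusted p = 0.0269) but lost the call without any one of mice 417_3, 517_3, 567, 897 or 3956, with limma adjusted p up to 0.0799, and without both 417_3 and 517_3 (log2 fold change 1.54, limma adjusted p = 0.210). Other ligands of Ccr1 were not called. Ccl3 and Ccl5 had negative log2 fold changes (-0.45 and -0.95, limma adjusted p = 0.781 and 0.211), and Ccl7, described below, had 0.97. Ccl3 gave 1.78 without glands 417_3 and 517_3 (limma adjusted p = 0.0527) and -2.68 without glands 133 and 392 (limma adjusted p = 0.0110).

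Cx3cr1, the fractalkine receptor of monocytes and tissue macrophages, was higher in tumors, while a difference in its only ligand Cx3cl1 was not called. Cx3cr1 measured 60.6, 39.5 and 15.8 TPM in carcinosarcomas and 12.3, 21.3 and 44.5 TPM in carcinomas, against 3.75, 4.62, 1.36 and 1.37 TPM in glands. All tumors exceeded all glands (log2 fold change 3.04, standard error 0.47, limma adjusted p = 0.00219). Cx3cl1 measured 13, 18.6 and 6.27 TPM in carcinosarcomas and 46.8, 14.3 and 11.3 TPM in carcinomas, against 15.3, 26.4, 128 and 96.3 TPM in glands. It did not pass (log2 fold change -1.59, standard error 0.64, limma adjusted p = 0.107), and its highest values were those of glands 417_3 and 517_3, without which the log2 fold change was -0.39 (limma adjusted p = 0.680).

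Ccr2, which lies near Ccr1 on chromosome 9 and guides monocytes out of the bone marrow, fell just short. It measured 43.0, 57.2 and 17.3 TPM in carcinosarcomas, 20.4, 6.09 and 88.0 TPM in carcinomas and 8.72, 17.3, 1.15 and 0.48 TPM in glands. Tumor 273_5 lay below glands 133 and 392, and Ccr2 did not pass (log2 fold change 2.59, standard error 0.83, limma adjusted p = 0.0535). Without glands 417_3 and 517_3 it was 1.14 (limma adjusted p = 0.377), and without glands 133 and 392 it was 4.04 (limma adjusted p = 0.0129).

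Among the ligands of Ccr2, Ccl12 was called and Ccl2 and Ccl7 were not. Ccl12, a monocyte attractant of mice, was higher, at 221, 76.8 and 79.6 TPM in carcinosarcomas and 55.5, 37.5 and 82.4 TPM in carcinomas against 5.82, 15.2, 4.28 and 4.65 TPM in glands. The groups did not overlap (log2 fold change 3.39, standard error 0.47, limma adjusted p = 0.00123). Ccl2 and Ccl7, its neighbors on chromosome 11, did not pass (log2 fold changes 0.69 and 0.97, limma adjusted p = 0.638 and 0.413). Glands 133, 392, 417_3 and 517_3 had 7.33, 18.8, 152 and 154 TPM of Ccl2 and 5.43, 28.7, 73.7 and 82.99 TPM of Ccl7. Without glands 417_3 and 517_3 the log2 fold changes were 2.49 and 2.23, still short of the threshold (limma adjusted p = 0.0718 and 0.0965). Ccl8, from the same run of genes, ran from 59.2 through a median of 177 to 847 TPM in tumors and was 32.7, 181, 21.5 and 22.3 TPM in glands, with overlap, and missed the threshold (log2 fold change 2.43, standard error 0.80, limma adjusted p = 0.0593).

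Cxcr2, the receptor by which neutrophils follow CXC ligands, was low throughout yet higher in tumors. Its levels were 2.59, 2.52 and 6.59 TPM in carcinosarcomas, 19.6, 6.58 and 1.62 TPM in carcinomas and 1.11, 0.08, 0.39 and 0.10 TPM in glands. No overlap was seen (log2 fold change 2.09, standard error 0.53, limma adjusted p = 0.0209), and the call was lost without gland 392 or gland 517_3 (limma adjusted p up to 0.0584) and without either pair of glands (limma adjusted p up to 0.0949). Its ligands Cxcl5, Cxcl3, Cxcl1 and Cxcl2 lie with Cxcl15 within 147 kb of chromosome 5 but did not share a pattern. Cxcl5 measured 11.02, 22.3 and 73.2 TPM in carcinosarcomas, 207, 60.3 and 1.3 TPM in carcinomas and 0.35, 0.48, 0.46 and 1.08 TPM in glands. Cxcl5 was higher (log2 fold change 4.21, standard error 1.01, limma adjusted p = 0.0170), although carcinoma 3956 barely exceeded gland 517_3 and its repeat library had 0.29 TPM. The call of Cxcl5 was lost without either pair of glands (limma adjusted p = 0.0611 and 0.0821) and with the adipocyte covariate (limma adjusted p = 0.0563). Cxcl3 measured 7.56, 58.7 and 17.9 TPM in carcinosarcomas, 212, 3.40 and 11.98 TPM in carcinomas and 0.54, 0.20, 1.59 and 1.80 TPM in glands. It was higher without overlap (log2 fold change 3.53, standard error 0.92, limma adjusted p = 0.0235), a call lost without gland 133 or gland 392 (limma adjusted p up to 0.0634), without either pair (up to 0.130) and with the adipocyte covariate (0.109). Cxcl1 and Cxcl2 instead peaked in 2 glands: Cxcl1 had 4.51, 5.89, 418 and 410 TPM in glands 133, 392, 417_3 and 517_3, and 15.5 to 94.5 TPM in tumors, with a median of 29.3 TPM. Cxcl2 had 1.99, 0.89, 199 and 191 TPM in the same glands and 2.78 to 39.6 TPM in tumors, with a median of 9.79 TPM.

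Cxcl15, the fifth gene of that run, an epithelial chemokine first known from lung, was the ligand with the smallest p among the lower genes. Glands had 10.3, 21.9, 19.4 and 19.7 TPM. Carcinosarcomas had 0.02, 0.71 and 0.12 TPM, and carcinomas had 0.65, 2.88 and 0.20 TPM. Every tumor lay below every gland (log2 fold change -3.53, standard error 0.39, limma adjusted p = 0.000410), and the call held in all 21 alternative fits. The stretches of 110 bases before the RefSeq start sites of these neighbors other than Cxcl5 are shown (GRCm38.p6, plus strand). They were chosen because the genes lie side by side and differ in pattern. The stretch before Cxcl5, the remaining gene of the run, is not shown, so Cxcl15 cannot be taken as the only one without a match. Capitals mark matches to the NF-kB consensus, a motif bound by the inflammatory factor NF-kB, where the matches on both strands overlap.
Cxcl3, chr5:90785991-90786100: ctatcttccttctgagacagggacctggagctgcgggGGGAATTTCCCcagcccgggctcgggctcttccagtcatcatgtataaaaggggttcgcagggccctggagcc
Cxcl15, chr5:90794424-90794533: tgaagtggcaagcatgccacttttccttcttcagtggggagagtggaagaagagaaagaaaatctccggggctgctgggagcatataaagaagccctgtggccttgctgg
Cxcl1, chr5:90891135-90891244: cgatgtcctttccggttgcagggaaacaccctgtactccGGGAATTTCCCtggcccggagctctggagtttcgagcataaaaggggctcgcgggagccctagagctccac
Cxcl2, chr5:90903789-90903898: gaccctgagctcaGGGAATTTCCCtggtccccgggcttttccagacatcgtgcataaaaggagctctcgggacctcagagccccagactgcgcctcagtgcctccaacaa
The same 11 letters occur before Cxcl3, Cxcl1 and Cxcl2, whose levels nonetheless differed in which libraries were high, and no match was found in these letters before Cxcl15. Within 250 bases before the start, on either strand, 11 of the 46 family members found in the promoter table held a match, against 7.251% of 32851 promoters. The AP-1 motif TGANTCA, searched likewise, was found in 6 of the 46 and in 6.749% of all promoters. A family member counted when any of its listed promoters held a match, whereas the shares are over single promoters. The counts and shares are therefore not in the same unit. A match describes letters only.

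Ccl19, Ackr1, Ackr4, Xcl1 and Ccl27a were also called lower. Ccl19, a ligand of Ccr7 that guides T cells and dendritic cells, had 1.86, 13.2, 24 and 35.1 TPM in glands and 0 to 0.93 TPM in tumors, with a median of 0.23 TPM (log2 fold change -3.43, standard error 0.59, limma adjusted p = 0.00349). Ackr1, the atypical receptor of venous endothelium and red cells, had 9.98, 13.2, 90.8 and 92.2 TPM in glands, against 0.46, 3.42 and 0.38 TPM in carcinosarcomas and 6.20, 0.54 and 1.29 TPM in carcinomas (log2 fold change -3.78, standard error 0.73, limma adjusted p = 0.00627). Neither gene overlapped between groups, and both passed in every alternative fit that tested them. Ackr4, a scavenger of Ccl19 and Ccl21, had 2.14, 1.89, 5.85 and 5.74 TPM in glands and 0.05 to 1.80 TPM in tumors, with a median of 0.415 TPM. Its call (log2 fold change -1.51, standard error 0.36, limma adjusted p = 0.0177) was lost without gland 417_3 or gland 517_3 (limma adjusted p up to 0.0560), without both (0.119), and with the adipocyte covariate or no filter on low values (up to 0.0640). Xcl1, a product of NK cells and CD8 T cells, had 7.91, 8.47, 9.88 and 8.87 TPM in glands and 0.29 to 4.52 TPM in tumors, with a median of 2.58 TPM (log2 fold change -1.64, standard error 0.40, limma adjusted p = 0.0189). The call of Xcl1 was lost without either pair of glands (limma adjusted p = 0.0808 and 0.0640) and with the adipocyte covariate (limma adjusted p = 0.105). Ccl27a, an epithelial ligand of Ccr10, was lower by a smaller step, at 43.9, 46.8, 31.2 and 32.25 TPM in glands and 19.04 to 28.6 TPM in tumors, with a median of 20.3 TPM. Its log2 fold change was -0.74 (standard error 0.22, limma adjusted p = 0.0409), and leaving out any one of mice 133, 392, 517_3, 273_5, 567, 897 or 3956 ended the call, with limma adjusted p up to 0.111, as did leaving out both 133 and 392 (0.209) or the adipocyte covariate (0.322). Ccl25, a ligand of Ccr9 best known from thymus and gut, was higher, at 21.4, 13.6 and 14.7 TPM in carcinosarcomas and 6.26, 7.47 and 6.83 TPM in carcinomas against 4.79, 3.79, 3.35 and 2.22 TPM in glands. It passed (log2 fold change 1.39, standard error 0.36, limma adjusted p = 0.0243) but not without mouse 392, 417_3, 517_3 or 567 (limma adjusted p up to 0.0750), without both 417_3 and 517_3 (0.119) or with the adipocyte covariate (0.144), and Ccr9 stayed at or below 1.08 TPM in all mice.

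**Figure D3:**
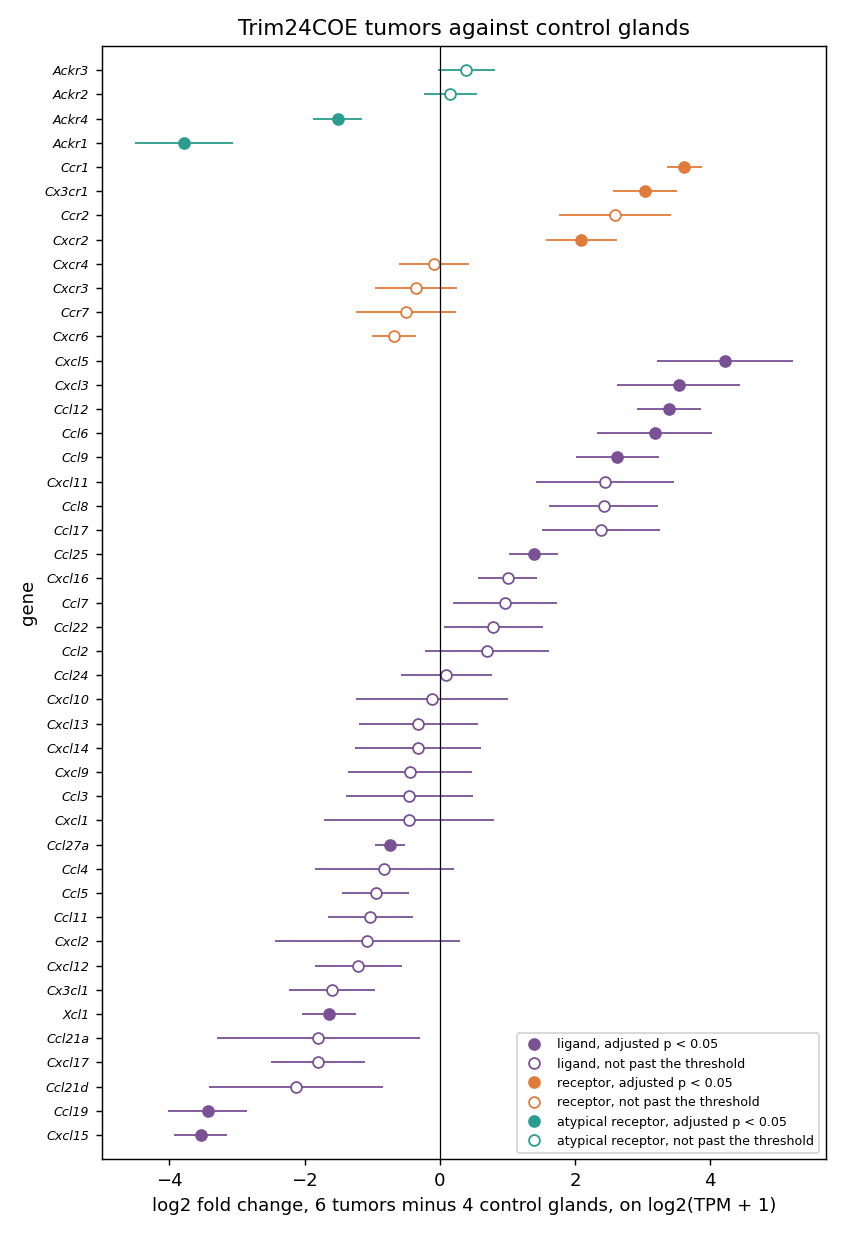
Log2 fold change of 45 of the tested genes, 6 Trim24COE tumors minus 4 control glands on log2(TPM + 1), with bars of 1 standard error; filled points passed a limma adjusted p of 0.05. The 3 called receptors drawn lie between 2.09 and 3.62, and the 2 called atypical receptors are at -1.51 and -3.78.

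**Figure D4:**
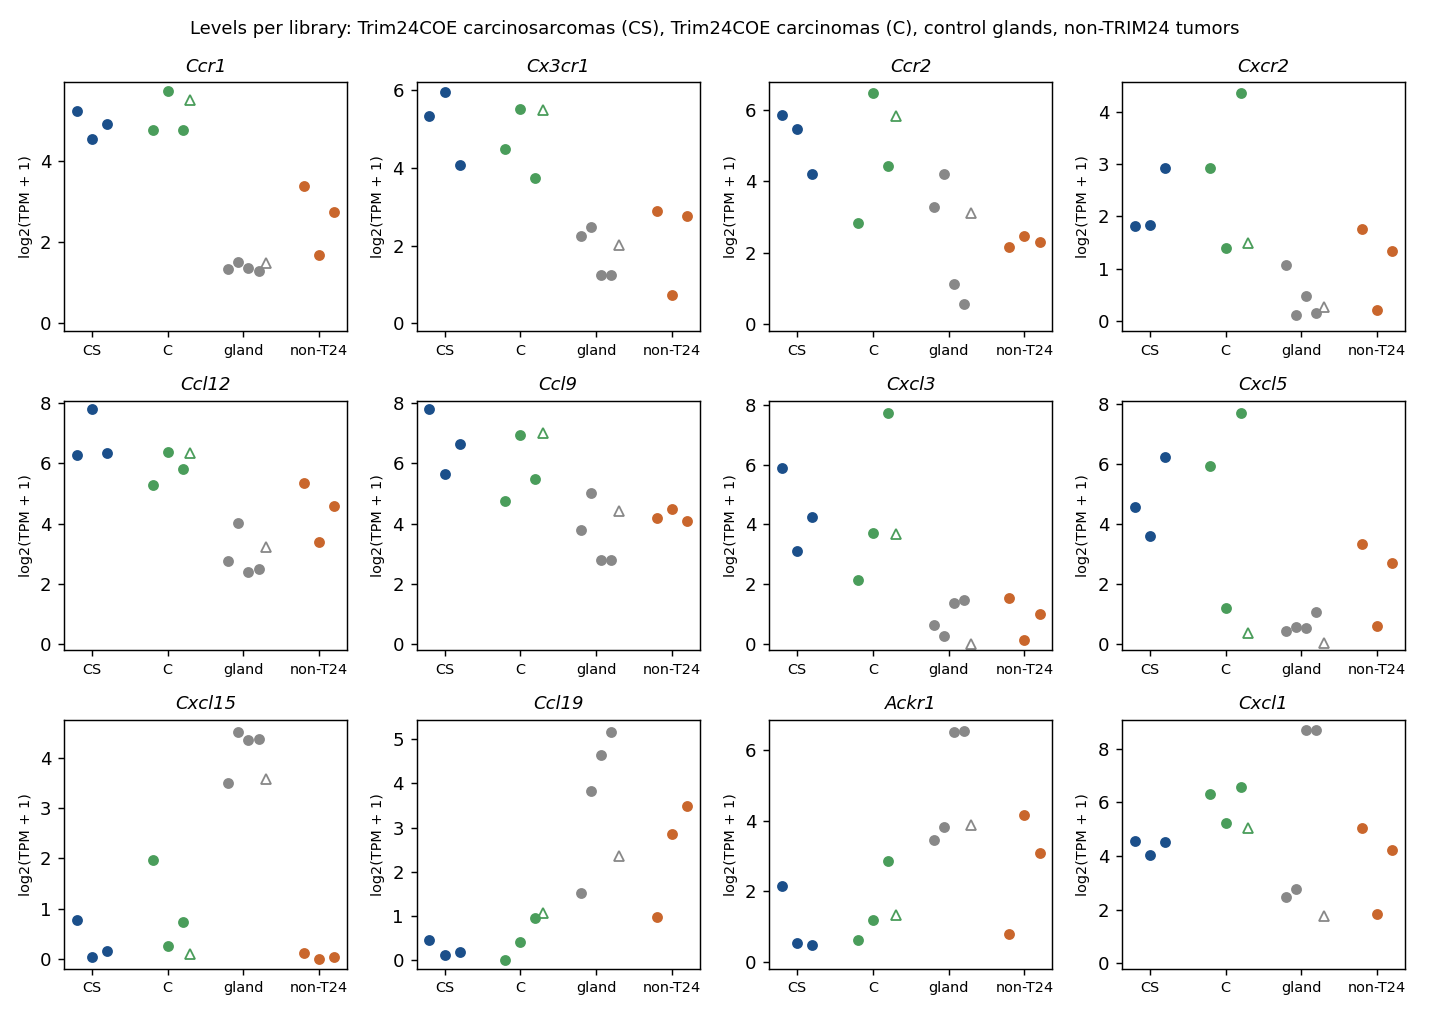
Level of 12 genes in each library as log2(TPM + 1), by group; open triangles are the batch 2 repeats of mice 3956 and 133. Ccr1, Cx3cr1 and Ccl12 are higher in all 6 Trim24COE tumors than in all 4 glands, Cxcl15, Ccl19 and Ackr1 are lower, and Cxcl1 is split between glands.

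Part of the family depended on which glands stood as controls. Of 51 members at 1 TPM or more in a gland, 18 were over 2-fold higher in both 417_3 and 517_3 than in both other glands, and 4 (Ccl6, Ccl24, Ccr2 and Cx3cr1) were over 2-fold higher in 133 and 392, beside 10.8% and 6.08% of all genes at that level. Without glands 417_3 and 517_3, 13 members of 48 were called beside 19.3% of all genes, and without glands 133 and 392, 22 of 48 were called beside 16.2%. In both fits 7 of them passed in the same direction, among them Ccr1, Cx3cr1 and Ccl12, which were higher, and Cxcl15, Ccl19 and Ackr1, which were lower. Another 4 members were called in opposite directions by these fits. The shares of all genes called in both fits, in the same or in opposite directions, were not computed, so these counts have no background. Against glands 133 and 392 alone, Cxcl1 was higher in tumors (log2 fold change 2.58, limma adjusted p = 0.0272), and against glands 417_3 and 517_3 alone it was lower (log2 fold change -3.49, limma adjusted p = 0.00806). Ccl4, a T-cell and macrophage attractant, gave 1.74 and -3.38, Cxcr4 gave 1.11 and -1.29, and Ccl24, an eosinophil attractant, gave -1.47 and 1.66, with limma adjusted p at or below 0.0354 in each. With both pairs in the fit these 4 had log2 fold changes between -0.82 and 0.10 and none was called.

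Most tested macrophage and neutrophil markers were higher and most B-cell markers lower in the same tumors, while Ptprc, the marker common to leukocytes, was not called (log2 fold change 0.72, standard error 0.29, limma adjusted p = 0.110). Of 10 macrophage and monocyte markers, 7 were called higher in Trim24COE tumors and none lower, beside 7.96% and 9.13% of all genes. Their summed levels were 1468 to 3580 TPM in tumors and 394 to 971 TPM in glands. C1qa alone had 398 to 1389 TPM in tumors. Other markers of the list overlapped. Cd14 had 347 and 362 TPM in glands 417_3 and 517_3 against 83.0 to 250 TPM in tumors. In gland 392 Adgre1 had 26.5 TPM and Mrc1 48.0 TPM, within their tumor ranges of 20.1 to 33.2 and 18.3 to 73.6 TPM. Of 8 neutrophil markers, 6 were tested and 5 called higher; their sum was 102 to 2067 TPM in tumors and 7.33 to 12.99 TPM in glands, where Ly6g was listed at 0 in 2 of the 4. Of 7 B-cell and plasma-cell markers, 6 were tested and 5 called lower, with sums of 7.16 to 31.6 TPM in tumors and 85.8 to 833 TPM in glands. Of 9 T-cell and NK-cell markers 1 was called lower (7.16 to 48.4 TPM against 33.2 to 53.5 TPM), and of 6 endothelial markers 3 were called lower (58.0 to 356 TPM against 260 to 417 TPM). Of 8 adipocyte markers 3 were called lower, of 6 fibroblast markers 2 were called higher, of 9 mammary epithelial markers 1 was called lower, and of 6 dendritic-cell and 5 lymph node stroma markers 1 each was called lower, of 5 and 2 tested. Carcinoma 89 had the highest neutrophil sum, 2067 TPM, and the highest Cxcr2, Cxcl3 and Cxcl5. Gland 392 had the highest B-cell sum, 833 TPM, and the highest level of Cxcl13, a chemokine that draws B cells, with 56.8 TPM. The part of cell composition in the differences was not tested.

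**Figure D5:**
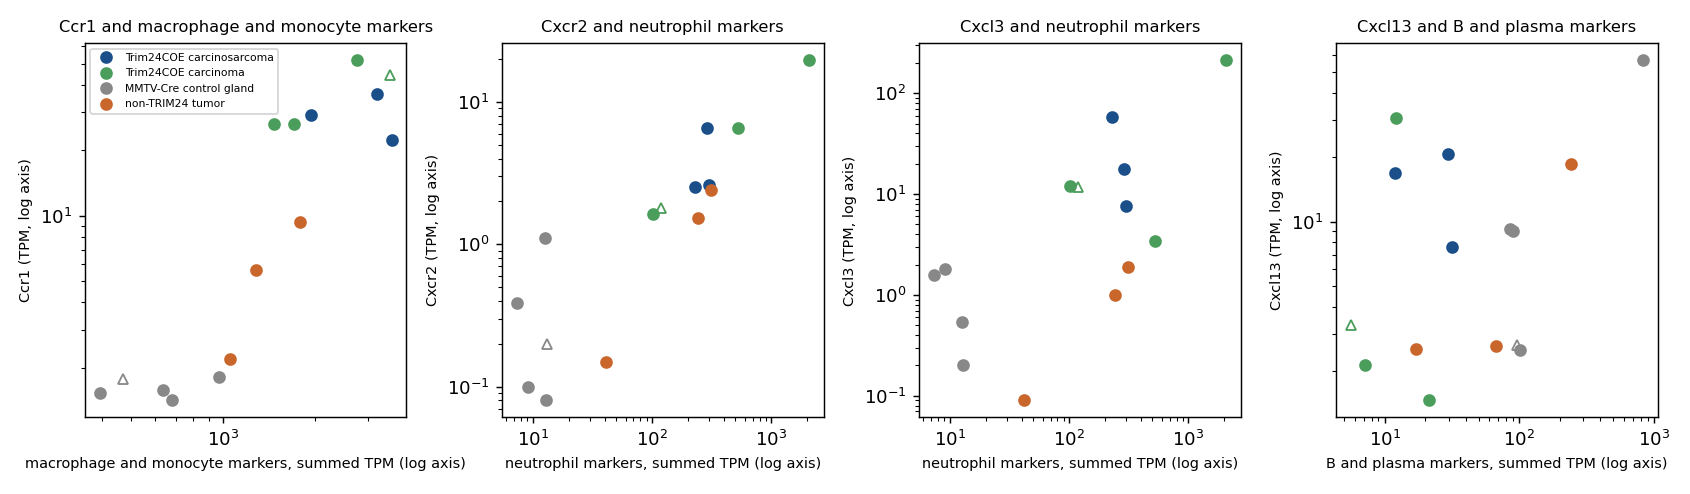
Levels of Ccr1, Cxcr2, Cxcl3 and Cxcl13 (TPM, log axes) against the summed TPM of marker lists, 1 point per library, colored by group; open triangles are batch 2 repeats, and the repeat of gland 133, with Cxcl3 at 0, is not drawn in that panel. Trim24COE tumors lie at high macrophage sums with Ccr1 above 22 TPM, and carcinoma 89 lies apart for neutrophil markers with Cxcr2 and Cxcl3.

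Set against the same 4 glands, the carcinosarcomas had 16 called members of 46 tested, 10 higher and 6 lower, beside 23% of all genes (9.83% higher, 13.1% lower). Without glands 417_3 and 517_3 the count was 23 of 47, beside 31.9% of all genes, and without glands 133 and 392 it was 27 of 47, beside 37.6%. Of the 16, Ccr1, Cxcl15, Ccl12, Cxcl5, Cx3cr1, Ccl25 and Cxcl3 passed in each of 7 fits without 1 mouse, while Ccl9, Ackr4, Cxcr2, Ackr1, Ccl19 and Xcl1 were lost without 1 or more of mice 64, 567 and 897 (limma adjusted p up to 0.0795). The calls included Ccl17, a ligand of Ccr4 made by dendritic cells, at 29.1, 128 and 3.53 TPM against 0.88, 1.02, 1.82 and 1.82 TPM (log2 fold change 3.47, standard error 0.96, limma adjusted p = 0.0351). The call of Ccl17 was kept in only 1 of the 7 fits that left out a mouse, with limma adjusted p up to 0.124. Cxcl17, a mucosal chemokine, was lower at 0.24, 0.45 and 0.08 TPM against 1.05, 6.30, 13.5 and 14.4 TPM (log2 fold change -2.61, standard error 0.67, limma adjusted p = 0.0279). Its call was kept in 2 of those 7 fits (limma adjusted p up to 0.101). Ccl25 was higher (log2 fold change 1.96, standard error 0.31, limma adjusted p = 0.00509) and passed in all 17 alternative fits. The carcinomas, against the same glands, had 4 called members of 48 tested, beside 3.5% of all genes (1.58% higher, 1.92% lower). Without glands 417_3 and 517_3 the count was 5 of 47, beside 7.81% of all genes, and without glands 133 and 392 it was 16 of 48, beside 7.77%. Ccr1, Ccl12 and Cx3cr1 were higher (log2 fold changes 3.72, 2.90 and 2.77, limma adjusted p = 0.00740, 0.0229 and 0.0338) and Cxcl15 was lower (log2 fold change -3.20, limma adjusted p = 0.0186). Of these, Ccr1 alone passed in each of the 7 fits without 1 mouse: the others were lost without 417_3, 517_3 or 3956, and also without 89 for Ccl12 and Cxcl15 or without 273_5 for Cx3cr1, with limma adjusted p up to 0.101.

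Compared directly, carcinosarcomas and carcinomas showed no called member among 41 tested, beside 0.698% of all genes (0.113% higher, 0.585% lower). In limma 5 members had an unadjusted p under 0.05, beside 15% of all genes. Ccl2 measured 139, 111 and 216 TPM in carcinosarcomas and 51.0, 17.9 and 40.4 TPM in carcinomas, without overlap (log2 fold change 2.13, standard error 0.44, limma adjusted p = 0.122). Ccl7 measured 125, 93.2 and 145 TPM against 58.5, 16.6 and 39.2 TPM (log2 fold change 1.79, standard error 0.46, limma adjusted p = 0.184). Both monocyte attractants therefore separated these tumors in rank but not past the threshold. Ccl25 and Ccl5 were likewise higher in each carcinosarcoma than in each carcinoma, and Cxcl1 was lower in each. Ccl5, a T-cell attractant, had 74.8, 65.4 and 46.5 TPM against 40.3, 23.2 and 10.4 TPM. Cxcl1 had 15.5, 22.3 and 22.0 TPM against 94.5, 77.5 and 36.4 TPM. Of all genes tested, 7.33% were higher and 14.4% were lower in this sense, beside 4 and 1 of the 41 members. Without carcinoma 3956, Cxcl1 was called lower (log2 fold change -2.06, limma adjusted p = 0.0291), as was Cxcl17.

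The non-TRIM24 tumors served to ask which features other mammary tumors share. Batch and this group are told apart only through the repeated mice 133 and 3956, and these comparisons share glands and tumors with those above; they were not repeated without pairs of glands. Against glands, 1 member of 48 was called, beside 0.709% of all genes (0.203% higher, 0.507% lower): Cxcl15, at 0.08, 0 and 0.02 TPM against 10.3 to 21.9 TPM (log2 fold change -4.08, standard error 0.43, limma adjusted p = 0.00108). The repeat library of gland 133, in the batch of these tumors, had 10.9 TPM of Cxcl15. Ccr1 had 9.37, 2.20 and 5.63 TPM in non-TRIM24 tumors, above every gland and below every Trim24COE tumor. Against glands it did not pass (log2 fold change 1.23, standard error 0.42, limma adjusted p = 0.155). Against carcinomas no member of 48 was called, beside 0.0298% of all genes, and 7 had an unadjusted limma p under 0.05, beside 17.6% of all genes. Ccr1 had the smallest p of the 7 (log2 fold change of carcinomas over non-TRIM24 tumors 2.44, standard error 0.44, limma adjusted p = 0.107) and passed without tumor 219 or without the batch term.

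Between carcinosarcomas and non-TRIM24 tumors, 5 members of 48 were called, all higher, beside 4.76% of all genes (3.24% higher, 1.52% lower). They were Ccr1 (log2 fold change 2.27, standard error 0.45, limma adjusted p = 0.0190), Ccl25 (1.65, standard error 0.35, limma adjusted p = 0.0245) and Cx3cr1 (2.90, standard error 0.69, limma adjusted p = 0.0335). Ccl12 (2.58, standard error 0.64, limma adjusted p = 0.0386) and Ccl9 (2.85, standard error 0.75, limma adjusted p = 0.0461) completed them. In non-TRIM24 tumors 219, FVB001 and FVB002, Ccl25 measured 5.84, 3.01 and 6.65 TPM and Cx3cr1 6.40, 0.65 and 5.81 TPM. Ccl12 measured 39.7, 9.35 and 23.3 TPM and Ccl9 17.3, 21.2 and 15.99 TPM there. All 5 genes were higher in each carcinosarcoma than in each of these tumors. They were picked by the test on the same libraries, and the share of all genes without overlap was not computed here. The median log2 fold change of all genes was 0.13 here, and scaling libraries to a common 75th percentile moved it to -0.07 and left 4 of the 5 calls. None of the 5 was called when mouse 64, 567 or FVB002 was left out, or when repeats counted as separate mice, and without FVB001 1 member was called. Macrophage markers summed to 1057 to 1790 TPM in non-TRIM24 tumors and 1950 to 3580 TPM in carcinosarcomas.

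Several other ligands and receptors were high in single mice. Ccl21a reached 529 TPM and Ccl21d 106 TPM in carcinosarcoma 567, the tumor that also had the highest Ccr7 (15.7 TPM), Ccl17 (128 TPM), Ccl22 (32.4 TPM) and sum of 6 dendritic-cell markers (63.1 TPM). Ccr7, the lymph node homing receptor, was next highest in glands 417_3 and 517_3, at 13.7 and 13.4 TPM, and at most 4.00 TPM elsewhere. The interferon-induced ligands Cxcl9, Cxcl10 and Cxcl11 together reached 300.1 TPM in carcinoma 273_5, 267 TPM in non-TRIM24 tumor 219 and 227 TPM in carcinoma 89. Their receptor Cxcr3, found on activated T cells, was highest elsewhere, at 16.4 TPM in carcinoma 3956 (16.6 TPM in its repeat), where these ligands summed to 9.85 TPM. Cxcl11 is annotated as a polymorphic pseudogene in GENCODE and yet measured 150 TPM in 273_5. Ccl24 was highest in non-TRIM24 tumors FVB001 and FVB002 at 73.2 and 33.96 TPM, the non-TRIM24 tumors that also had high adipocyte marker sums of 49791 and 25834 TPM. Cxcl12 overlapped among all groups, at 8.43 to 119 TPM in Trim24COE tumors, 55.2 to 107 TPM in glands and 18.6 to 78.8 TPM in non-TRIM24 tumors. Its receptor Cxcr4 measured 34.9, 41.2 and 31.3 TPM in carcinosarcomas, 39.6, 43.95 and 21.03 TPM in carcinomas, 15.96, 14.8, 90.9 and 80.5 TPM in glands and 17.3, 9.57 and 18.1 TPM in non-TRIM24 tumors. Ackr3, which scavenges Cxcl12, ranged from 15.2 to 48.5 TPM in Trim24COE tumors, 11.8 to 32.7 TPM in glands and 4.35 to 11.6 TPM in non-TRIM24 tumors. Neither receptor overlapped between Trim24COE and non-TRIM24 tumors, which lay in different batches; 21.4% of all genes at 1 TPM or more in at least 3 of these tumors were higher in this sense.

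Beyond the family, 42 other genes of chemokine biology were listed, from signaling partners to inducers. In Trim24COE tumors against glands 40 were tested, with 3 called higher and 4 lower, 17.5% beside 17.1% of all genes. Rac2 and Vav1, which link receptors to the actin cytoskeleton of leukocytes, and Arrb2, an arrestin that desensitizes receptors, were higher (log2 fold changes 1.41, 1.62 and 1.41, limma adjusted p = 0.0296, 0.00935 and 0.0181). Arrb1 and the receptor kinase Grk3 were lower (-1.97 and -1.59, limma adjusted p = 0.0173 and 0.00589), as were the scavenging receptor Gpr182 (-1.76, limma adjusted p = 0.00115) and Dpp4, a protease that trims chemokines (-1.03, limma adjusted p = 0.0385). Arrb1 had 25.5, 33.7, 133 and 69.7 TPM in glands 133, 392, 417_3 and 517_3, and 8.46 to 27.1 TPM in tumors. None of 11 tested inducers, Nfkb1, Rela, Tnf and Il1b among them, was called. Those named were all higher in glands 417_3 and 517_3 than in glands 133 and 392, whereas Ltb was not. Il1b had 1.98, 2.59, 189 and 199 TPM in glands 133, 392, 417_3 and 517_3, and 52.1 to 167 TPM in tumors. Fits of these 42 genes and of the marker lists without pairs of glands are not given. Carcinosarcomas against glands gave 3 higher and 3 lower of 40 tested, 15% beside 23% of all genes, and carcinomas against glands gave Gpr182 alone of 41.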

How the data were processed

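The deposited values were TPM per gene, 1 table for each sequencing batch. Per the study's methods the authors trimmed reads with Trimmomatic, aligned them with STAR to GRCm38 with GENCODE M14 and estimated TPM with RSEM; the submitters' notes also name TopHat and Cufflinks. TPM keeps no read depth, so no counting error was computed. All 15 library columns were used (0 left out).

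Genes were matched by symbol; Ccl21d is named Gm21541 in 1 table. Coordinates are GENCODE M21 and promoters RefSeq, both GRCm38. Chemokine genes and lists were chosen with earlier results of these data known. All members could be named; called members and the highest ligands and receptors were given in every mouse or as lowest, median and highest. Other single values were chosen after they were seen. Results of some genes are not reported here, although counts and sums include them.

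Values were tested as log2(TPM + 1) with limma 3.58.1 in R 4.3.3 (lmFit, eBayes with trend, two-sided, Benjamini-Hochberg over all genes tested). Fold changes on this scale understate changes of low genes. A gene was tested when it reached 1 TPM in a number of libraries equal to the mice of the smaller group. Trim24COE tumors and glands used batch 1 first libraries; where non-TRIM24 tumors entered, the fit held all 15 libraries, a batch term and duplicateCorrelation linking the libraries of a mouse (0.951). The fits were tested on simulated data. Alternatives changed the pseudocount (0.1), filter (none or 5 TPM), scaling, trend, groups fitted, adipocyte covariate, batch term, repeats and mice.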

Additional observations from a re-analysis of the deposited data

Results flagged for a closer look

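Gland 133 stood apart from the other 3 control glands for Cxcl15, at 10.3 TPM against 19.4 to 21.9 TPM, with a gap of 0.838 of the group's range on the log2(TPM + 1) scale, past Dixon's 95% critical value for 4 samples. Its batch 2 repeat library had 10.9 TPM. Chance flags about 1 in 20 groups, and this was the 1 flag among 47 sets of values (24 genes in the 4 glands or the 6 Trim24COE tumors). Every tumor lay below gland 133 as well.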

How the results depend on the processing

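Called members numbered 16 in Trim24COE tumors against glands and 11 to 17 with each mouse left out in turn; without a filter they were 10. For carcinosarcomas against glands the count was 16, with a leave-one-out range of 10 to 18; it was 10 without a filter, 26 with the adipocyte covariate and 27 without glands 133 and 392. For carcinomas against glands it was 4, with a range of 1 to 6; it was 1 without a filter or with 417_3 and 517_3 averaged as 1 gland, 8 with the adipocyte covariate, 10 with all batch 1 groups in one fit and 16 without glands 133 and 392. Scaling to a common 75th percentile there gave 3 higher and 3 lower in place of 3 and 1. Carcinosarcomas against carcinomas ranged from 0 to 2 (2 without 3956), non-TRIM24 tumors against glands from 1 to 2 (2 without 133), and carcinomas against non-TRIM24 tumors from 0 to 1 (1 without 219, and 1 without a batch term). Carcinosarcomas against non-TRIM24 tumors had 5, with a range of 0 to 4, and 2 without a filter, 9 without a batch term and 0 with repeats as separate mice. Without a filter, more genes share the adjustment; other causes were not tested. The alternatives that averaged or left out pairs of glands were chosen after seeing the data.

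Of 948 alternative values of single members, 768 kept their direction and side of the threshold, 146 lost and 14 gained the call, and 20 changed sign, all of uncalled members in Trim24COE tumors against glands. With 417_3 and 517_3 averaged, and then without both, Cxcl1 changed to 0.55 and 2.58, Ccl4 to 0.033 and 1.74, Cxcr4 to 0.31 and 1.11 and Ccl24 to -0.42 and -1.47; with common scaling Ccl24 was -0.024. With 1 mouse left out, Cxcl1 ranged from -1.52 to 0.56, Ccl4 from -1.74 to 0.044, Cxcr4 from -0.51 to 0.34 and Ccl24 from -0.45 to 0.64. The sign turned without 417_3 or 517_3 for each of the 4, and also without 3956 for Cxcr4 and without 89 or 567 for Ccl24.

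Scaling libraries to a common 75th percentile moved the median of all genes from -0.27 to -0.04 for non-TRIM24 tumors against glands, from 0.27 to -0.02 for carcinomas and from 0.13 to -0.07 for carcinosarcomas against non-TRIM24 tumors. Where leaving out mouse 133 or 3956 left 1 mouse linking the batches, the correlation of the full fit was reused. No paired analysis was possible because the groups share no replicate numbers. Groups of 3 and 4 mice limit what can be called, and depth, which TPM does not keep, limits values under 1 TPM.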
